A study of Mus musculus with 24 samples.

Results

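Phenobarbital-treated liver of mice deficient in CAR was measured on 6 of the 24 two-colour arrays of the series, those titled for the drug and for loss of CAR alone. The remaining 18 arrays, 6 per group, came from wild-type (WT) mice, mice deficient in PXR and mice deficient in both receptors (CAR/PXR-deficient). All mice were male C57BL/6J. The treated animals received 100 mg/kg phenobarbital by intraperitoneal injection and their livers were taken after 12 h. The Cy5 channel carried treated liver and the Cy3 channel carried a single pool, made per genotype, of 6 livers from mice injected with the vehicle, 5% DMSO in corn oil. For WT replicate 1 the labels conflict. The source name of its pool channel gives the vehicle pool, while the treatment tag of that channel names phenobarbital. It was read as the pool. The deficient mice were 9 to 12 weeks old, and an age for the WT mice is not given in the labels. How the receptor genes were disrupted is not given there either. Whether the 6 arrays of a group hold livers of separate mice is also not stated, so p-values here measure the spread between these samples, which may be partly technical.

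CAR (encoded by Nr1i3) is a nuclear receptor of hepatocytes that binds DNA together with RXR. Phenobarbital activates it indirectly: the drug leads to dephosphorylation of CAR, which then moves from the cytoplasm into the nucleus and raises transcription of drug-metabolizing enzymes, with Cyp2b10 as the classical target in mouse liver. PXR (Nr1i2) is a related receptor that binds many drugs and steroids directly and is best known for inducing Cyp3a genes, and the target sets of the receptors overlap. Mice lacking CAR therefore allow the question of which transcripts still respond to the drug without this receptor.

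The array is a focused mouse design of 120 probes printed in 3 copies each. The sources used here do not pair the probe numbers with genes, so probes are given by number, and neither the transcript of CAR itself nor liver cell type markers could be looked up to check the labels. A value is a log2 ratio of treated over vehicle, so that 1 stands for a doubling and 0 for no difference. All ratios are relative to the bulk of the probes on the same array, because each array was normalized to its own intensity trend.

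Between 38.9 and 46.4 percent of the probe spots carried a flag in the deposited scanner files on replicates 1 to 4, against 24.4 and 27.8 percent on replicates 5 and 6. The number of probes with at least 1 unflagged spot was 73, 73, 81, 73, 96 and 89 on replicates 1 to 6. Replicates 5 and 6 stood apart in the local background of the Cy5 channel, which was 33 and 32 intensity units on them and 185 to 256 on the other 4 arrays. No spot of these 6 arrays was saturated. Of the 120 probes, 80 were bright enough on enough arrays of the series to be tested, and 78 of these had at least 2 values in CAR-deficient liver. Of the 40 probes left out, 24 were above background on none of the 6 arrays. A further 13 had at least 2 values, with mean log2 ratios between -0.37 and 0.36.

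Relative to the other probes of the array, few probes differed by much between phenobarbital-treated and vehicle CAR-deficient liver. With the 6 arrays fitted alone, 9 of 78 probes rose (11.5 percent) and 9 fell (11.5 percent), 18 in all (23.1 percent), at an adjusted p under 0.05 by limma with Benjamini-Hochberg adjustment. On this scale no probe differed by 2-fold on average: mean log2 ratios ran from -0.56 to 0.52, with a median of 0.01 and a median size of 0.11. The 9 probes that rose had a median of 0.27 (range 0.22 to 0.52), and the 9 that fell had a median of -0.38 (range -0.56 to -0.21). Treated liver was in Cy5 and the same pool in Cy3 on all 6 arrays. A dye bias of single probes or a pool that stands apart would recur on every array. Neither can be told apart from a response here. The count depended on the fit. When the spread was estimated over all 4 genotypes together, 0 of 78 probes passed in limma (0 percent). There the smallest adjusted p was 0.155, and 12 probes had an unadjusted p below 0.05. The spread within the CAR-deficient group was the smaller one, with a median SD per probe of 0.20, against 0.25 in PXR-deficient, 0.30 in CAR/PXR-deficient and 0.32 in WT liver. Single arrays also decided the count: it was 29 without replicate 1, 1 without replicate 2, 4 without replicate 3, 10 without replicate 4 and 1 without replicate 6.

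The direction of the falls depended on what the arrays were centred on. Spike-in centring shifted the median probe upward on all 6 arrays, so it could hardly turn a rise into a fall. All 9 rises kept their sign there, which carries no weight as a check. The median probe lay above the calibration spike-ins by 0.44 to 0.82 on the log2 scale on the 6 arrays, and the medians of the authors' value table ran from 0.50 to 0.82. With centring on the spike-ins 74 probes rose and 0 fell, and 76 rose and 0 fell in the authors' table. Sizes shifted as well: the mean log2 ratios of Mm051 and Mm061 were 1.31 and 1.13 with the spike-ins, past 2-fold. In the authors' table they were 1.41 and 1.19. After that table was centred on its medians, 15 rose and 9 fell. The spike-ins of a commercial scorecard were added to the treated channel and luciferase to the pool channel, per the labels, so equal amounts in both channels are not certain. The rises and falls described here are therefore relative to the other probes of the array.

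**Figure D1:**
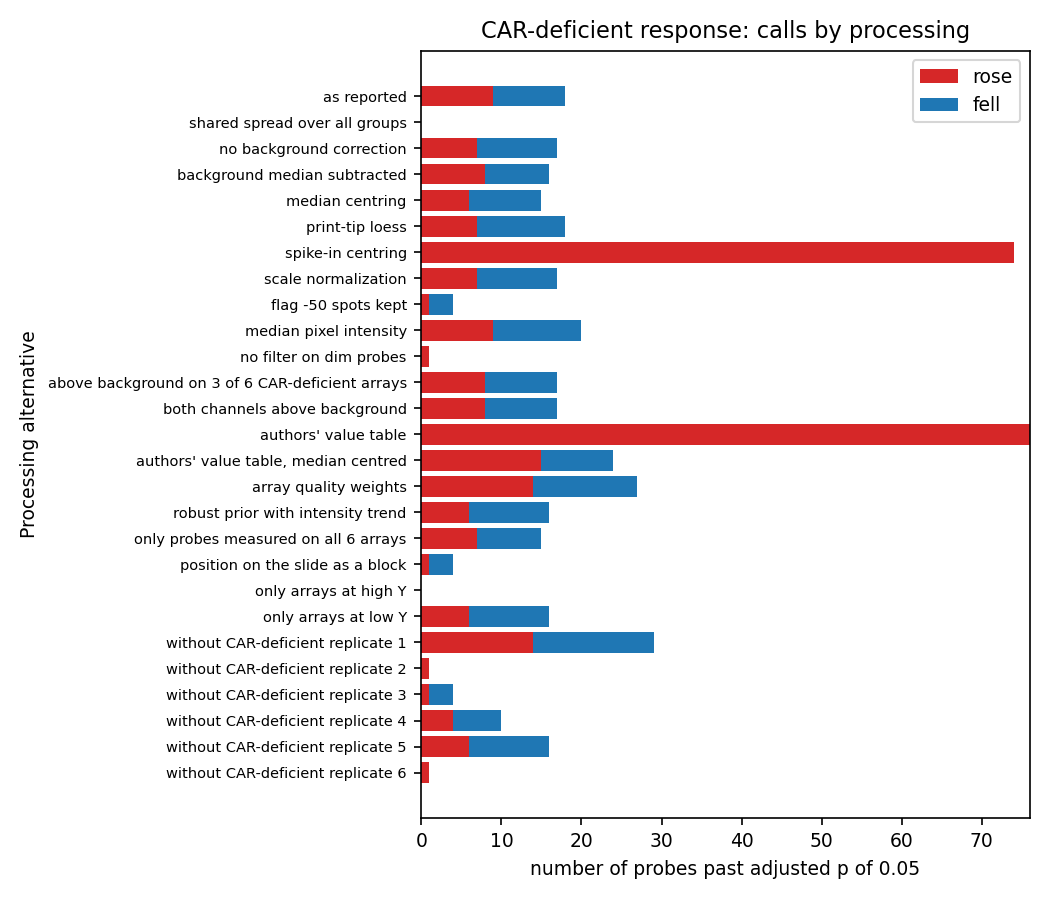
Number of probes past an adjusted p of 0.05 in CAR-deficient liver (x axis), split into rises (red) and falls (blue), for each processing alternative planned (y axis, 1 bar each). The count as reported is 18, with 9 rises and 9 falls, and the bars run from 0 to 76. The bar label that names position on the slide stands for high or low Y coordinates of the scan.

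Mm051 had the highest mean ratio. Its log2 ratios in replicates 1 to 6 were 0.39, 0.62, 0.64, 0.21, 0.67 and 0.60. It was positive on every array, with replicate 4 lowest, and rose 1.44-fold (0.52 ± 0.18, SD, n = 6; SE 0.076, adjusted p = 0.00104). The treated-channel level of Mm051 was 12.29 ± 0.26 and the pool level 11.76 ± 0.19 (normalized log2 intensity, n = 6), above background on all 6 arrays in both channels. It kept a positive mean in all 28 alternatives run, between 0.42 and 1.41, and failed to pass in 2 of them: the fit with the shared spread (adjusted p = 0.155) and the 3 arrays at high Y coordinates (0.0579).

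Mm061 was the other of the highest rises, and 1 array went against it. Its log2 ratios in replicates 1 to 6 were 0.42, 0.55, 0.84, 0.89, -0.51 and 0.36. Replicate 5 was the only negative value, and the mean rise was 1.34-fold (0.43 ± 0.51, n = 6; SE 0.14, adjusted p = 0.0471). It passed in 13 of 28 alternatives, and its mean was -0.08 on replicates 5 and 6 alone.

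Mm069 had the lowest mean. Its log2 ratios in replicates 1 to 6 were 0.06, -0.73, -1.16, -0.17, -0.72 and -0.67. Replicate 1 was slightly above 0 and replicate 3 was the only one past 2-fold, and the mean fall was 1.48-fold (-0.56 ± 0.44, n = 6; SE 0.13, adjusted p = 0.0138). It passed as a fall in 20 of 28 alternatives. It failed without replicate 2 (adjusted p = 0.113), without replicate 6 (0.0579) and with no filter on dim probes (0.0690). It also failed with the shared spread (0.156), on the arrays at high Y coordinates (0.210) and on the 4 arrays of higher Cy5 background (0.0927). Mm061 and Mm069 were also the probes with the largest SD among those measured on all 6 arrays.

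Mm056 was the next lowest. Its log2 ratios in replicates 1 to 6 were -0.04, -0.40, -0.73, -0.28, -0.53 and -0.82. Every array was at or below 0, with replicate 1 close to it, and the mean fall was 1.38-fold (-0.47 ± 0.29, n = 6; SE 0.096, adjusted p = 0.0123). It too passed in 20 of 28 alternatives. It failed without replicate 2 (0.0653), without replicate 6 (0.0579) and with no filter on dim probes (0.0606). It also failed with the shared spread (0.230), on the arrays at high Y coordinates (0.224) and on the 4 arrays of higher Cy5 background (0.0927). Both falls turned positive with spike-in centring, where Mm069 had 0.07 and Mm056 0.11, values below the median probe of 0.64. In the authors' value table the mean was 0.087 for Mm069 and 0.25 for Mm056, below its median probe of 0.61.

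**Figure D2:**
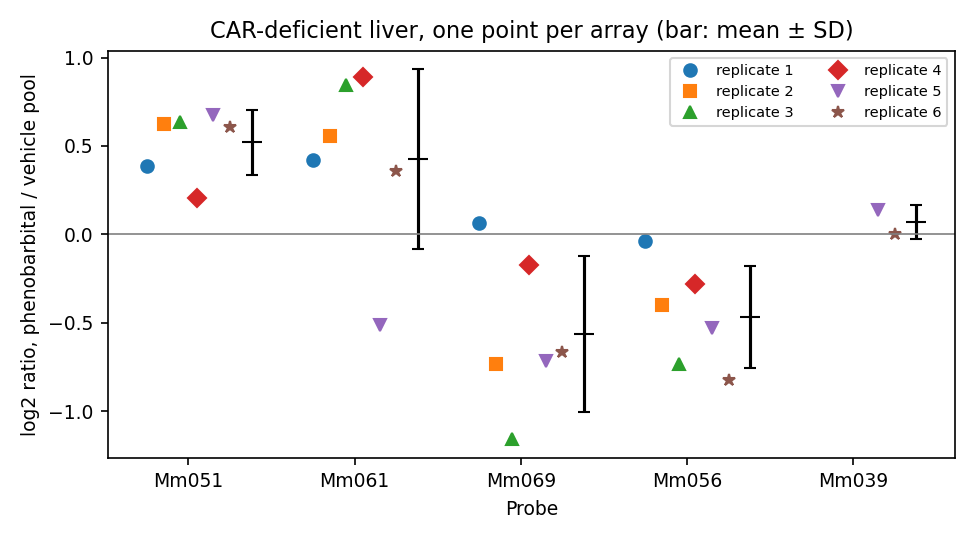
Log2 ratios of phenobarbital over vehicle pool (y axis) for 5 named probes (x axis) on the CAR-deficient arrays, 1 symbol per replicate, with the mean and SD as black bars. Mm051 is above 0 on all 6 arrays, Mm061 is negative on replicate 5, replicate 1 is close to 0 for Mm069 and Mm056, and Mm039 has 2 values only.

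The 6 arrays did not agree equally. Across 70 to 78 probes, the ratios of replicates 2, 3 and 6 correlated with the mean of the other arrays at r of 0.79, 0.82 and 0.82. Replicates 4 and 5 gave 0.45 and 0.53, and replicate 1 gave 0.01. The 5 pairs of arrays that include replicate 1 had r from -0.07 to 0.06, against 0.09 to 0.81 for the other 10. These correlations are across probes, which share the array, its dyes and its pool and are not independent replicates, so they are a description of the arrays. No pair was alike within spot noise, the variance of a pair's difference being 2.85 to 35.5 times that expected from replicate spots.

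The probes that passed showed the same pattern. The 9 that rose had median log2 ratios of 0.22, 0.47, 0.38, 0.17, 0.20 and 0.25 in replicates 1 to 6. The 9 that fell had medians of -0.04, -0.58, -0.54, -0.24, -0.31 and -0.40. The falls were thus near 0 on replicate 1 and deepest on replicates 2 and 3. Of the 18 probes, all that were measured had the sign of their mean on replicates 2, 3 and 6 (17, 18 and 18 probes), against 15 of 18 on replicate 1, 14 of 17 on replicate 4 and 15 of 18 on replicate 5. These arrays also chose the probes, so the counts only describe them. Without replicate 1, all 18 were among the 29 that passed, with the same sign. Of the 64 tested probes measured on all 6 arrays, 14 had 1 sign throughout, and so did 8 of the 16 that passed. In the files the spots of replicates 1, 3 and 5 lie at high Y coordinates of the scan and those of replicates 2, 4 and 6 at low ones. Within these positions, 0 probes passed on the 3 high arrays (9 at an unadjusted p under 0.05) and 16 passed on the 3 low ones, of which 12 were among the 18. With position as a block 4 probes passed. The difference between the positions was itself tested in 77 probes by limma, and 0 passed, with 1 at an unadjusted p under 0.05. The counts of 0 and 16 are therefore no sign that the ratios differ by position. The 4 arrays of higher Cy5 background alone gave 3 and the other 2 gave 16.

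**Figure D3:**
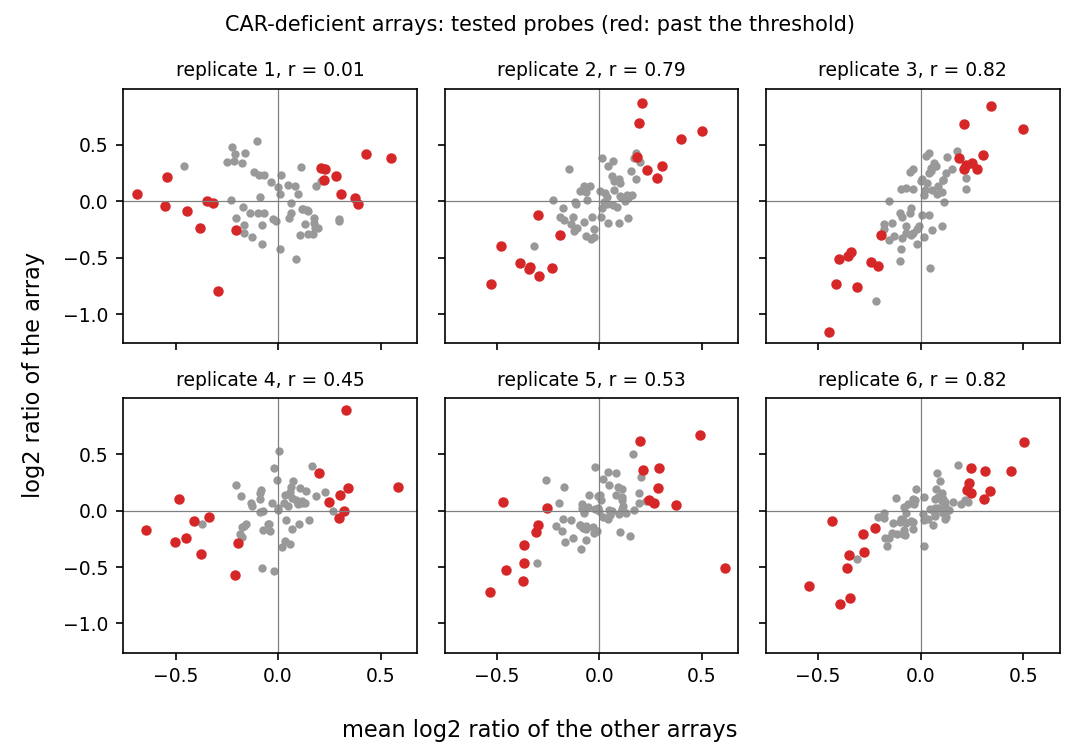
Log2 ratio of each probe on 1 CAR-deficient array (y axis) against its mean log2 ratio on the other arrays (x axis), 1 panel per replicate, with the probes past the threshold in red. The points of replicates 2, 3 and 6 follow a rising line (r of 0.79 to 0.82), while those of replicate 1 do not (r of 0.01).

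Mm038 and Mm039 were looked at because they are the probes with the highest ratios in WT and PXR-deficient liver in earlier results of these data. For Mm038 all spots were flagged on the 6 CAR-deficient arrays. Its Cy5 signal, treated liver, was 1.23, 1.52, 1.34, 1.41, 2.31 and 2.53 times the local background on replicates 1 to 6, and its Cy3 signal was 1.25 to 1.62 times. Neither channel was well above background on any of these arrays, so the probe has no usable ratio. In WT liver the Cy5 signal of Mm038 was 30.5 to 48.7 times the local background, and in PXR-deficient liver 32.6 to 80.4 times. The groups do not overlap. As both probes were chosen for their high ratios in WT and PXR-deficient liver, this separation and the bounds below are a description only. On normalized levels the WT mean of the treated channel exceeded treated CAR-deficient liver at least 15.3-fold. The PXR-deficient mean exceeded it at least 14.5-fold. For these bounds each CAR-deficient array was set at the dimmest signal that still passed as above background there, and without balanced dye swaps they are open to dye bias. They are bounds on means of 1 channel compared across arrays. The WT mean was 12.40 on the log2 scale, with the lowest WT array at 10.96, against 8.46 for the bound in CAR-deficient liver. The RNA comes from whole liver, so fewer cells that express a transcript and less of it per cell cannot be told apart.

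Mm039 was measurable on replicates 5 and 6 only, the arrays of low Cy5 background. Its Cy5 signal was 6.77 and 7.55 times the local background there, and 1.38 to 2.10 times on the other 4 arrays. The Cy3 signal was 2.62 and 3.23 times on those 2 arrays. The log2 ratios were 0.14 and 0.0024 (mean 0.07 ± 0.10, n = 2). Relative to the other probes, the pool and the treated liver were therefore both dim and close to each other. With centring on the spike-ins the mean ratio of Mm039 was 0.72 (limma adjusted p = 0.000511), beside a median probe of 0.64. In the authors' value table it was 0.63 (limma adjusted p = 0.0098), beside a median probe of 0.61. The Cy5 signal was at least 20.7 times the background in WT and at least 24.4 times in PXR-deficient liver. CAR/PXR-deficient liver ranged from 2.23 to 13.1 times, which overlaps with CAR-deficient liver.

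**Figure D4:**
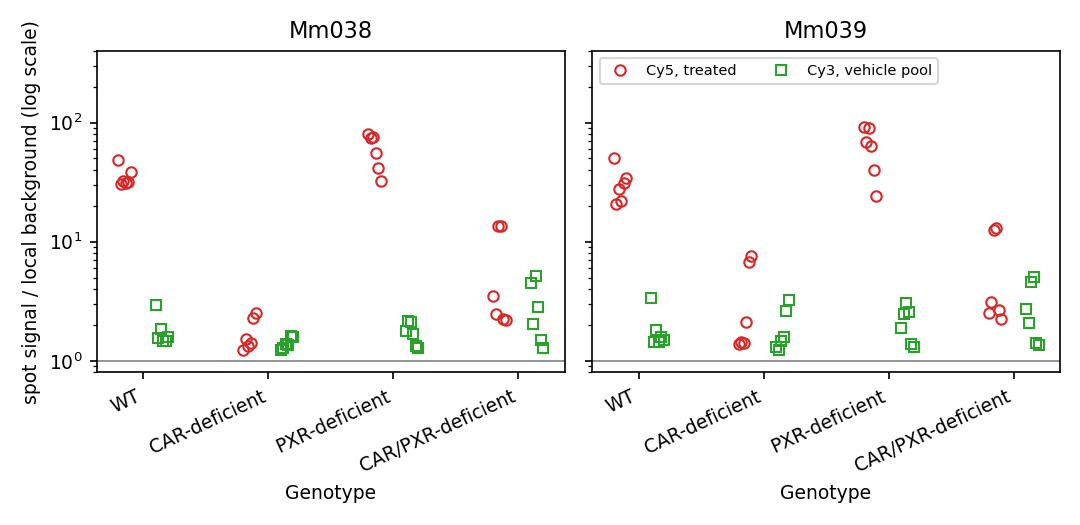
Spot signal over local background (y axis, log scale) of Mm038 and Mm039 on every array of each genotype (x axis), with the treated Cy5 channel as red circles and the vehicle pool in Cy3 as green squares. The Cy5 points of WT and PXR-deficient liver lie at 20.7 or above, while those of CAR-deficient liver lie at 7.55 or below.

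By their median size per array, the ratios of CAR-deficient liver were smaller than those of WT liver on the scale used here. A median size holds the noise of an array as well as a response, and the part of noise was not tested. The median percent of flagged spots was 56.1 on the WT and 40.3 on the CAR-deficient arrays. The median SD per probe was 0.32 and 0.20. The median absolute log2 ratio was 0.19, 0.19, 0.28, 0.14, 0.14 and 0.11 on CAR-deficient replicates 1 to 6, with a mean of 0.175 ± 0.062 (n = 6). The WT arrays had a lowest value of 0.15, a median of 0.33 and a highest value of 0.45, with a mean of 0.327 ± 0.109 (n = 6). The lowest was on replicate 1, the WT array with the most probes above background (115). The groups overlapped, and the difference of -0.152 had an exact two-sided permutation p of 0.0173, where the smallest possible is 0.00216. A ratio past 2-fold was found for 0 probes on 5 CAR-deficient arrays and for 1 probe on replicate 3, against 4 to 9 probes on the WT arrays. The WT arrays had 45 to 120 usable probes and the CAR-deficient ones 73 to 96, and their part in the difference was tested on the 39 probes measured on all 12 arrays, which gave -0.132 (p = 0.0390 by the same exact permutation test). With spike-in centring the difference turned to 0.023 (exact permutation p = 0.792), and in the authors' table after median centring it was -0.0905 (p = 0.0996).

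**Figure D5:**
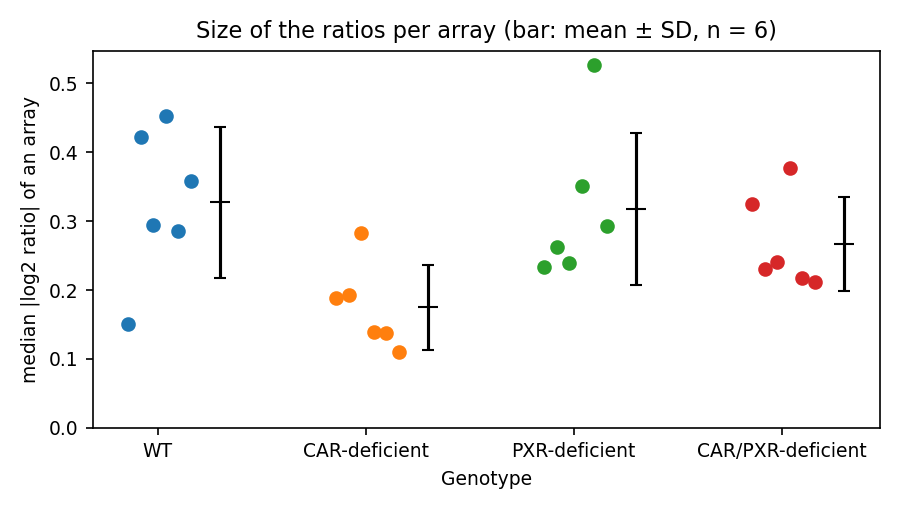
Median absolute log2 ratio of the tested probes (y axis) on each array, by genotype (x axis), with the mean and SD of the 6 arrays as black bars. The CAR-deficient arrays lie between 0.11 and 0.28 and the WT arrays between 0.15 and 0.45.

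Set against WT, the response of CAR-deficient liver differed in 1 of 78 probes (1.28 percent) in the limma fit over all genotypes, with 21 at an unadjusted p under 0.05. This was Mm039, and its values are given as a description only. The probe had been chosen for its high WT and PXR-deficient ratios, was bright enough to be tested through those genotypes, and its WT pool signal passed background on 1 of 6 arrays, so the fitted difference of -2.59 is uncertain in size. Its log2 ratios in WT ran from 1.58 to 3.27 with a median of 2.87 (n = 6), above both CAR-deficient values. The treated channel differed more than the pools. Its normalized log2 level was 12.11 ± 0.46 in WT and 8.10 ± 0.63 in CAR-deficient liver, mostly below background in the latter. The pool levels were 9.45 ± 0.57 in WT and 8.25 ± 0.45 in CAR-deficient liver, mostly below background in both. Since Mm039 rests on replicates 5 and 6, the count was 0 without either of them. It was also 0 with no background correction and with scale normalization, 5 without WT replicate 1 and 12 without WT replicate 5, and 2 without WT replicate 3, WT replicate 6 or CAR-deficient replicate 1. Centring on the spike-ins gave 55 probes higher and 1 lower in CAR-deficient liver, and median centring gave 2 and 5. The authors' table gave 16 and 0, or 4 and 1 after median centring. Mm051 had a WT mean of 0.43 ± 0.70 (n = 6), and the difference from CAR-deficient liver was 0.10 (SE 0.21, adjusted p = 0.852). Mm061 had -0.58 ± 0.98 in WT, and its difference of 1.004 (SE 0.35) had an adjusted p of 0.0775.

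Set against PXR-deficient liver, 15 of 78 probes differed (19.2 percent), 7 higher and 8 lower in CAR-deficient liver, with 25 at an unadjusted p under 0.05. PXR-deficient replicates 1 and 2 differed by no more than replicate spots do (1.05 times the expected variance) and were counted as 1 sample, which leaves n = 5. For 13 of the 15 the samples of the 2 groups did not overlap, as for 19 of all 78 probes. Mean log2 ratios of the 15 in CAR-deficient liver stayed between -0.36 and 0.52.

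The lowest of the 8 were Mm039 and Mm052, and neither has a well measured difference. Mm039 had 3.05 ± 0.48 (n = 5) in PXR-deficient liver and the 2 values near 0 in CAR-deficient liver, and it was above background in the PXR-deficient pool on 3 of 6 arrays. Mm052, a bright probe, had 0.32 ± 0.31 (n = 6) in CAR-deficient liver. In PXR-deficient liver 13 of its 18 spots carried the flag -100, and the 2 samples left had 1.68 and 2.03. Mm051, the leading rise of CAR-deficient liver, was lower there than in PXR-deficient liver as well (difference -0.92, SE 0.22, adjusted p = 0.00549), where its log2 ratios ran from 1.25 to 1.76.

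Mm001 was higher in CAR-deficient liver by 2.03 (SE 0.35, adjusted p = 0.000291). Its mean log2 ratio was -0.08 ± 0.22 (n = 6) there and -2.10 ± 0.20 (n = 5) in PXR-deficient liver. Its treated-channel levels were 9.56 and 9.42, while the pools were at 9.63 and 11.51, so the difference lay in the vehicle pools. Mm059 was higher by 1.09 (SE 0.30, adjusted p = 0.0111). It had 0.05 ± 0.27 (n = 6) in CAR-deficient and -1.05 ± 0.31 (n = 5) in PXR-deficient liver. The Mm059 call was lost with spike-in centring (adjusted p = 0.119), in the authors' table (0.110) and within the high and low positions (0.194 and 0.0664). Here the pools were at 10.50 and 10.41, and the treated channels at 10.54 and 9.39. Each genotype has 1 pool, so the spread between vehicle mice is not measured, and for Mm001 a response and a pool that stands apart cannot be told apart. The count was 5 on the arrays at high Y coordinates and 8 on those at low ones. Centring on the spike-ins gave 1 probe higher and 3 lower, and the authors' table gave 2 and 1.

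Set against CAR/PXR-deficient liver, 6 of 78 probes differed (7.69 percent), 5 higher and 1 lower in CAR-deficient liver, with 18 at an unadjusted p under 0.05. For 3 of the 6 the groups did not overlap, as for 4 of all 78 probes, but the groups did overlap for each of the 3 probes named here. These had an adjusted p of 0.0312 and passed in 11 of 24 alternatives each: Mm014, higher by 0.90 (SE 0.23), Mm012, higher by 0.82 (SE 0.19), and Mm062, lower by -0.50 (SE 0.14). In CAR-deficient liver the mean log2 ratio was -0.09 ± 0.22 for Mm014 (n = 6), 0.31 ± 0.26 for Mm012 (n = 5) and -0.10 ± 0.10 for Mm062 (n = 6). In CAR/PXR-deficient liver they were -0.99 ± 0.57, -0.51 ± 0.41 and 0.40 ± 0.31 (n = 6 each). The vehicle pools of the 2 genotypes differed more than the treated livers for all 3 probes. The pool levels in CAR-deficient and CAR/PXR-deficient liver were 9.72 and 10.42 for Mm014, 8.66 and 9.51 for Mm012, and 11.43 and 10.77 for Mm062. The treated-channel levels were 9.63 and 9.44, 8.84 and 9.00, and 11.33 and 11.17. In CAR-deficient liver Mm012 was dim, with 4 of 6 arrays above background for treated liver and 5 of 6 for the pool. As each pool is 1 sample, the pool differences have no replicate check. The count was 0 when CAR-deficient replicate 2, 3, 5 or 6 or CAR/PXR-deficient replicate 1 or 5 was left out, 1 without CAR-deficient replicate 1, and 0 within either position on the slide. Centring on the spike-ins gave 0 probes higher and 8 lower, the authors' table gave 0 and 17, and median centring of that table gave 9 and 6. With median centring of the scanner values 0 passed, with no background correction 6 were higher and 5 lower, and with scale normalization 2 were higher and 1 lower.

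The other genotypes were also fitted alone, in the same way as CAR-deficient liver. In WT liver 12 of 80 probes passed (15 percent), in PXR-deficient liver 22 of 79 (27.8 percent) and in CAR/PXR-deficient liver 13 of 80 (16.2 percent). Of the 18 probes of CAR-deficient liver, 3 also passed in WT, which is 16.7 percent of the 18 and 27.3 percent of the 11 WT probes tested in both. In 2 of these the sign was the same, and Mm061 had opposite signs. The shared number was 6 with PXR-deficient liver (33.3 percent of the 18 and 30 percent of 20 probes) and 4 with CAR/PXR-deficient liver (22.2 percent of the 18 and 30.8 percent of 13 probes), all of the same sign. All arrays carried the treated liver in Cy5, so a dye bias of single probes has the same sign in every genotype, and its part in these shared signs was not tested.

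The probes that passed in another genotype were also read in CAR-deficient liver. The 11 WT probes had a median absolute log2 ratio of 0.68 in WT and 0.20 in CAR-deficient liver, where they ran from -0.18 to 0.43. The 20 PXR-deficient probes had 0.64 there and 0.13 in CAR-deficient liver, and the 13 CAR/PXR-deficient probes had 0.60 and 0.19. The first value of each pair comes from the arrays that chose the probes, so these medians carry no test. Over all 78 probes the median absolute mean ratio of CAR-deficient liver was 0.11.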

How the data were processed

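Per the file headers, the deposited scanner files give mean and median pixel intensity per spot in both channels, the local background intensity with its SD, the saturated pixels in percent, and flags. The authors' value table holds log2 ratios. The sources used here do not give their centring, the scanner, its software or what the flags mean. Spots with the flag -50 (806 of the 2160 CAR-deficient probe spots) or -100 were left out of the ratios. The flag -100 was on 0 of these spots and on 86 probe spots of the other genotypes, and all 86 had saturated pixels.

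Ratios were computed with R 4.3.3 and limma 3.58.1: normexp background correction (offset 50) on the mean intensities, loess within each array over unflagged probe spots (controls at weight 0), and the mean over copies of a probe. A probe was tested if it was above background on at least 12 of the 24 arrays. This meant at least 2 spots exceeding the local background by 2 SD in either channel. A group fitted alone had to have at least 2 values of the probe, and a difference at least 1 value in each group compared. The response was the mean of the 6 CAR-deficient arrays against 0 (lmFit, eBayes), and differences between genotypes came from a single fit over all 4 groups, each with Benjamini-Hochberg adjustment at 0.05. Channel levels were taken after Aquantile normalization, with spots of flag -50 kept. On simulated data with 78 probes, log2 changes of 0.5 were found in 93.9 percent of cases for the response and in 38.9 to 51.2 percent for the differences. Log2 changes of 1 were found in 99.7 percent and in 91.0 to 93.5 percent. The simulation drew independent normal noise for each probe and array, with no effect shared over an array and no dye or pool bias. It leaves out the disagreement between the CAR-deficient arrays, so these shares do not give the power in the data. Figures were drawn with Python 3.11.15 and matplotlib 3.10.9.

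Members, probes and tests were chosen with earlier results of these data known. Named were Mm038, Mm039, the 2 probes of largest SD and, among those that passed in a comparison, the 2 highest and the 2 lowest. Mm051 and Mm061 are also given in comparisons where that rule did not pick them. The planned gene lists and cell type markers could not be tested, because no table used here pairs probes with genes. Replicate numbers did not pair the samples: same-numbered deviations correlated above 0.1 in 1 or 2 of 6 pairs. With so few arrays per group, their number limits the precision of all means. Alternative background corrections, normalizations, filters, weights, fits and samples were run.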

Additional observations from a re-analysis of the deposited data

Results flagged for a closer look

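Mm014 on CAR-deficient replicate 1 had a log2 ratio of 0.336, apart from the other 5 arrays by 0.635 of the group's range. It was the only 1 of 19 groups of values with a sample that far from the others, and chance flags about 1 in 20 groups.

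The other results were singled out because the ratios of 2 genotypes differed in a test of the difference itself. In limma, Mm001 differed between CAR-deficient and PXR-deficient liver by 2.03 (adjusted p = 0.000291) and Mm059 by 1.09 (0.0111). Mm039 had fitted differences of -2.59 from WT and -2.98 from PXR-deficient liver, and Mm052 had -1.53 from PXR-deficient liver. These 3 values are descriptions: Mm039 was chosen for its high ratios in those genotypes and has 2 CAR-deficient values, and only 2 PXR-deficient samples had unflagged spots of Mm052. Against CAR/PXR-deficient liver, Mm014 differed by 0.90, Mm012 by 0.82 and Mm062 by -0.50 (adjusted p = 0.0312 each). The median absolute log2 ratio per array was lower in CAR-deficient than in WT liver by a difference of -0.152 (exact two-sided permutation p = 0.0173). That value holds array noise as well as a response.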

How the results depend on the processing

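The count of 18 probes in CAR-deficient liver stayed within 1.5 times under 15 of 28 alternatives. It was 0 with the shared spread, 74 with spike-in centring, 4 with the spots of flag -50 kept, 1 with no filter on dim probes (91 tested), 76 in the authors' value table, 4 with position as a block, 0 on the arrays at high Y coordinates and, chosen after seeing the data, 3 on the 4 arrays of higher Cy5 background. Leaving out 1 array gave 1 to 29.

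Against WT the count of 1 became 2 with only these 2 groups fitted, 7 with median centring, 56 with spike-in centring, 0 with no background correction, 0 with scale normalization, 8 with flag -50 kept, 16 in the authors' table and 5 in it after median centring. It was 0 and 7 on the arrays at high and low Y, an alternative chosen after seeing the data, and 0 to 12 without single arrays. Against PXR-deficient liver the count of 15 became 4 with spike-in centring, 23 with flag -50 kept, 3 in the authors' table, and 5 and 8 at high and low Y, with 11 to 18 without single samples. Against CAR/PXR-deficient liver the count of 6 became 0 with median centring, 11 with no background correction, 3 with scale normalization, 1 with flag -50 kept, 17 in the authors' table, 15 in it after median centring, and 0 and 0 at high and low Y, with 0 to 8 without single arrays. With replicate number as a block, which has no basis in the labels, the counts were 1 against WT, 23 against PXR-deficient and 12 against CAR/PXR-deficient liver.

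The sign turned for Mm069 (0.067 with spike-in centring, 0.087 in the authors' table), Mm056 (0.11 and 0.25), the CAR-deficient ratio of Mm039 (-0.080 with flag -50 kept, -0.0225 in the authors' table after median centring), Mm061 (-0.077 on the 2 arrays of lower Cy5 background) and the difference of Mm012 from CAR/PXR-deficient liver (-0.33 in the authors' table). The difference in median absolute ratio from WT was 0.023 with spike-in centring, -0.0905 in the authors' table after median centring, and -0.188 to -0.127 without single arrays. The causes were not tested. Signal over background limits Mm038 and Mm039, which were dim in CAR-deficient liver, and the 40 probes not tested.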
